A study of Macaca mulatta with 449 samples.

Results

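CA1 was compared with CA3 in 16 Ribo-zero RNA-seq libraries of rhesus macaque (Macaca mulatta) hippocampus, of 408 such libraries and 449 samples in all. The members were chosen by the label of the dissected sub-region, and both sub-regions came from each of the same 8 animals, so the animal was the replicate. Of the 4 males, Rhesus 2 and 3 were 10 years old, Rhesus 7 was 4 and Rhesus 8 was 3.8, and of the 4 females, Rhesus 4 was 3.2, Rhesus 6 was 10, Rhesus 10 was 5 and Rhesus 11 was 9.8. No animal carried a treatment or an engineered allele by the labels, and each library was made from a small block of tissue holding neurons, glia and vessels. The CA1 libraries held 9468743 to 13795178 counted reads and the CA3 libraries 8143457 to 11838359. Levels are CPM, the counts scaled to a common library size with TMM factors, and a log2FC is CA1 over CA3 from edgeR's quasi-likelihood test with the animal as a block.

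CA1 and CA3 are fields of the hippocampus proper, whose principal cells are pyramidal neurons. CA3 neurons receive mossy fibers from the granule cells of the dentate gyrus, excite one another through recurrent collaterals and project by the Schaffer collaterals to CA1, which sends the main output of the hippocampus to the subiculum and the entorhinal cortex. In rodents the fields are told apart by genes such as FIBCD1, MPPED1, WFS1 and POU3F1 for CA1 and GRIK4, CPNE4 and NECTIN3 for CA3.

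HSF2BP and NPPA had the same order between the labels in every animal. HSF2BP (ENSMMUG00000022791), which encodes a partner of heat shock factor 2 with a role in meiotic recombination, had 6.20, 10.7 and 22.9 CPM as the lowest, median and highest level in CA1 and 1.65, 4.06 and 6.18 CPM in CA3. Its groups did not overlap, with 12.9 ± 6.46 CPM in CA1 and 3.83 ± 1.49 CPM in CA3 (mean ± SD, n = 8), and the level was higher in CA1 in 8 of 8 animals. NPPA (ENSMMUG00000007834), the precursor of atrial natriuretic peptide, had 2.34, 4.67 and 19.3 CPM in CA1 and 9.89, 16.8 and 29.4 CPM in CA3. The groups of NPPA overlapped because the CA1 levels of Rhesus 3 and 10 lay above the lowest CA3 level, yet CA3 was the higher library in 8 of 8 animals. These genes were given as markers of the fields with results of the same libraries known, so their direction is not independent evidence of the labels. Neither passed the test over all genes, with a log2FC of 1.68 (SE 0.28) and an FDR of 0.130 for HSF2BP and a log2FC of -1.54 (SE 0.29) and an FDR of 0.134 for NPPA. HSF2BP passed in the fit that also held the dentate gyrus (FDR 0.0114) and without Rhesus 11 (FDR 0.0478), and both genes passed in DESeq2 (adjusted p of 9.01e-06 and 2.43e-05).

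**Figure D1:**
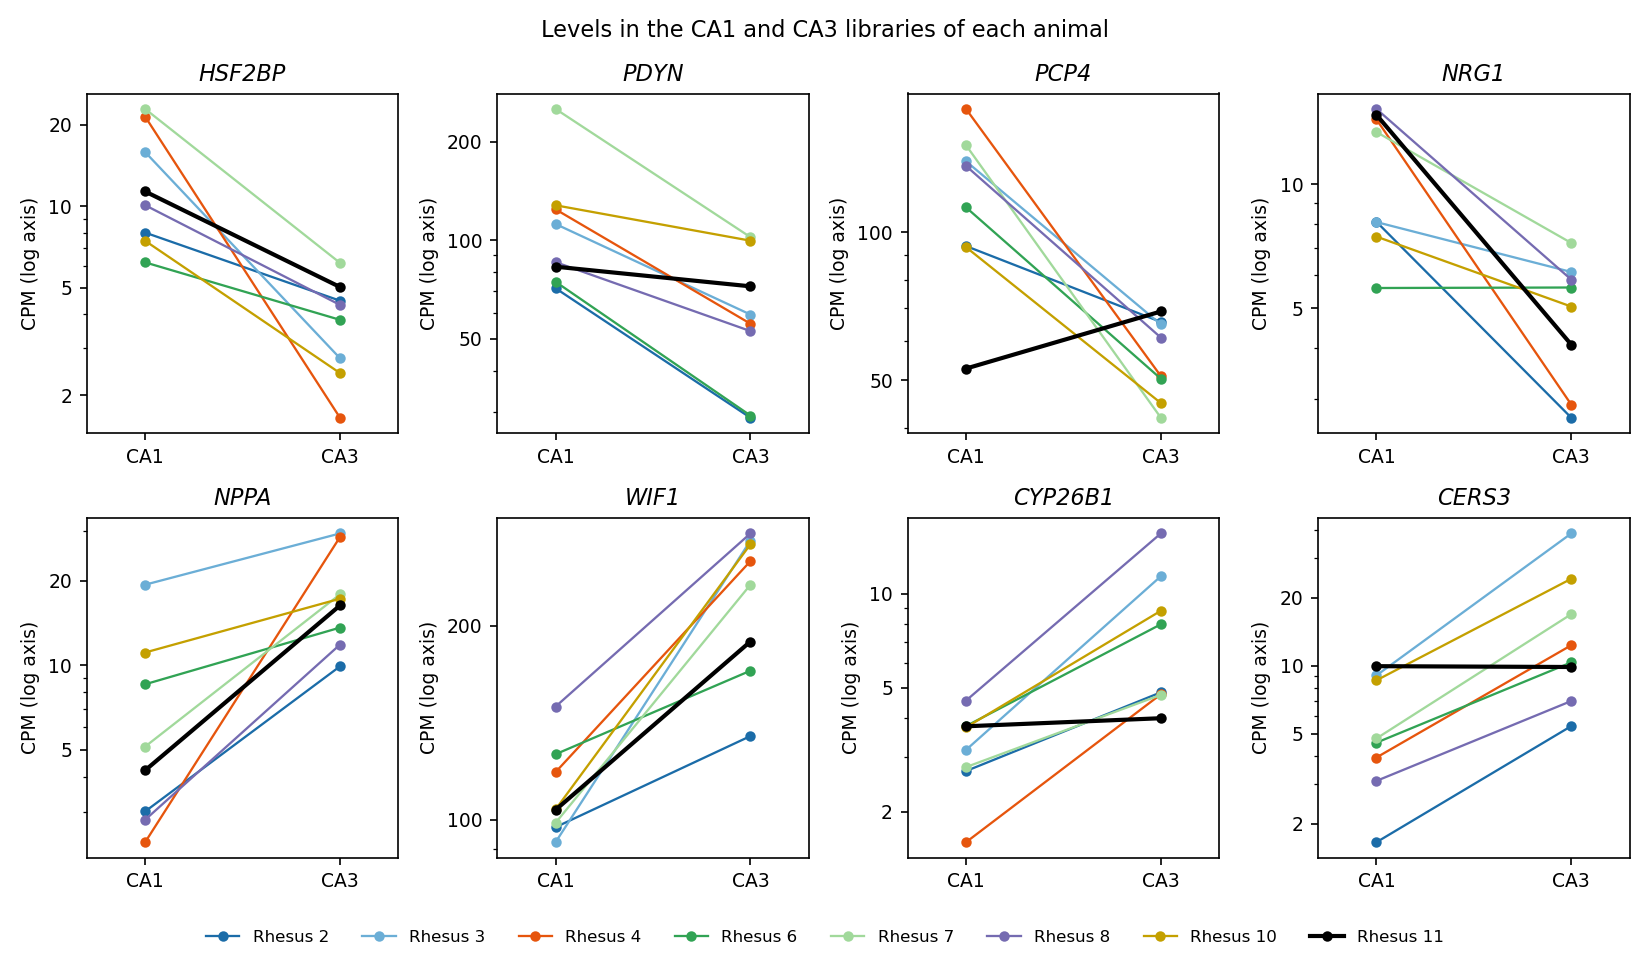
Levels of 8 genes in the CA1 and CA3 libraries of each animal, in CPM on log axes, with 1 line for each animal and Rhesus 11 as the thick black line. HSF2BP and PDYN were higher in CA1 in 8 of 8 animals and NPPA, WIF1 and CYP26B1 were higher in CA3 in 8 of 8, whereas Rhesus 11 ran opposite to the other animals for PCP4 and was level for CERS3.

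The rodent markers of the fields did not separate the labels. FIBCD1 had 3.45, 31.2 and 55.9 CPM in CA1 and 3.91, 37.0 and 73.9 CPM in CA3 (lowest, median and highest), with a log2FC of -0.24 (SE 0.46) and an FDR of 0.992. In the library labelled CA1 of Rhesus 11 it stood at 3.45 CPM against 52.6 CPM in the library labelled CA3, and in Rhesus 8 it stood at 17.4 CPM against 3.91 CPM. The ranges of the fields overlapped widely, and the lowest levels belonged to opposite labels in these animals. MPPED1 went the same way, with 4.14 against 33.4 CPM in CA1 and CA3 of Rhesus 11 and 21.8 against 4.22 CPM in Rhesus 8. POU3F1, a POU domain transcription factor, stood at 0.0767 against 4.86 CPM in Rhesus 11 and at 2.60 against 0.308 CPM in Rhesus 8. The lower POU3F1 level of each animal rests on very few reads. FIBCD1, MPPED1 and POU3F1 were picked from the 14 tested CA1 markers, and CPNE4 and NECTIN3 from the 12 tested CA3 markers, after their values were seen. CPNE4, a calcium-dependent membrane-binding copine, had the reverse order, with 284 against 73.2 CPM in Rhesus 11 and 110 against 251 CPM in Rhesus 8. NECTIN3, an adhesion protein of synapses, stood at 39.9 against 17.6 CPM in Rhesus 11 and at 13.8 against 36.7 CPM in Rhesus 8. For these chosen markers the libraries of Rhesus 11 therefore went against their labels, while its HSF2BP and NPPA went with them (11.3 CPM in CA1 and 5.03 CPM in CA3 for HSF2BP). Rhesus 11 was not alone, since 2 of the 14 CA1 markers were higher in CA1 in Rhesus 6 and 3 in Rhesus 11. No library was relabelled, and the number of called genes and the genes whose call turned on Rhesus 11 are given with and without it.

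**Figure D2:**
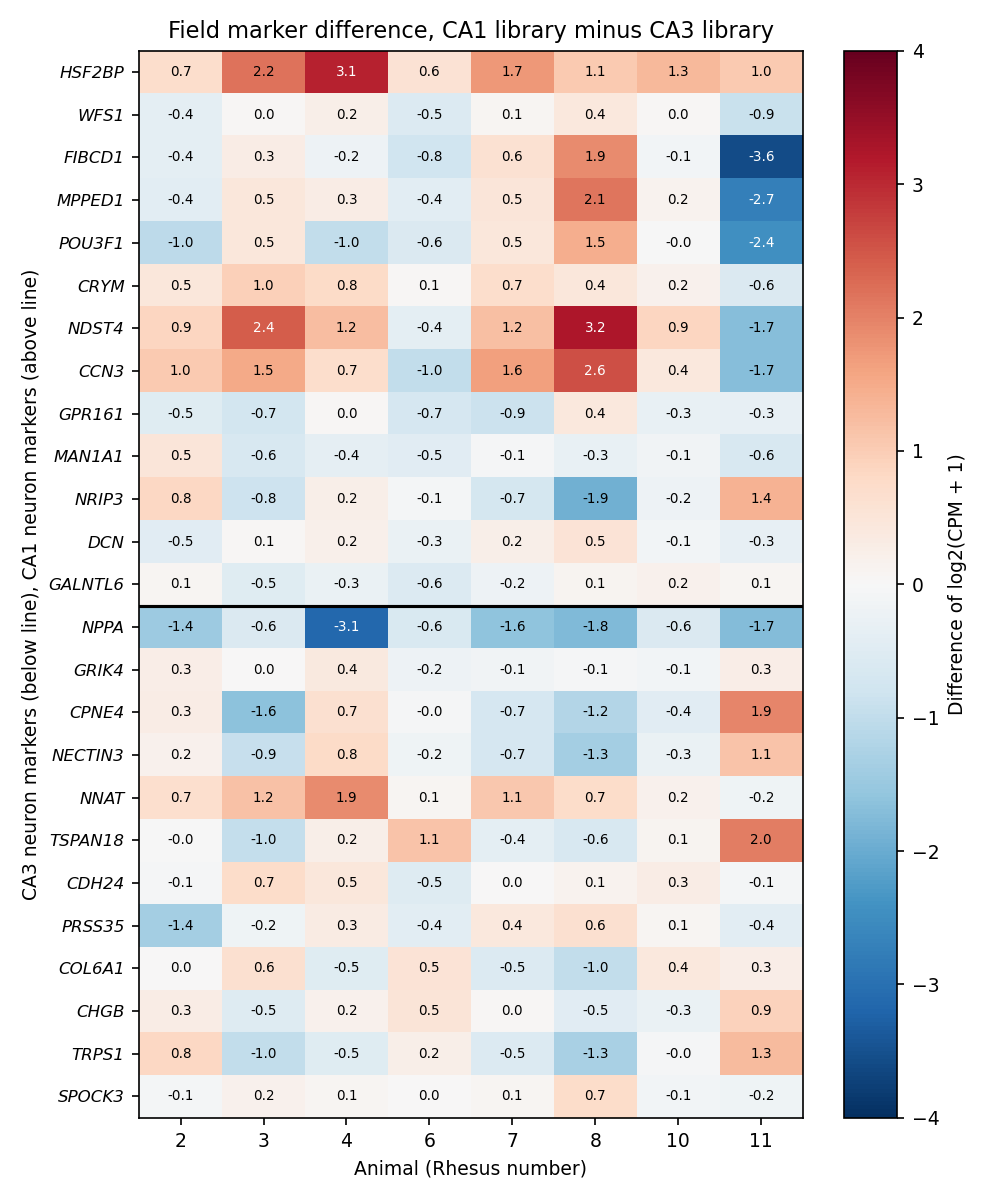
Difference of log2(CPM + 1) between the CA1 and the CA3 library of each animal for 13 CA1 neuron markers (above the line) and 12 CA3 neuron markers (below it), with red for higher in CA1 and blue for higher in CA3. HSF2BP and NPPA kept their direction in 8 of 8 animals, and FIBCD1, MPPED1 and POU3F1 were at their most negative in Rhesus 11 and their most positive in Rhesus 8.

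Over the list of CA1 neuron markers, 12 of 14 tested members were higher in CA1 in Rhesus 8, 10 in Rhesus 3 and in Rhesus 7, 9 in Rhesus 4 and 8 in Rhesus 10. In Rhesus 2 the count was 7 of 14, in Rhesus 11 it was 3 and in Rhesus 6 it was 2. Each of these counts holds HSF2BP, and each count of the CA3 markers holds NPPA. Both genes were given with results of the same libraries known, so 1 member of each count is no evidence of the labels. Of the 12 tested CA3 neuron markers, 3 were higher in CA3 in Rhesus 4, 5 in Rhesus 2 and in Rhesus 11, 6 in Rhesus 6, 7 in Rhesus 3, 7 and 10 and 8 in Rhesus 8, so that by this list Rhesus 4 went against its labels further than Rhesus 11. The median difference of log2(CPM + 1) over the CA1 list ran from -0.77 in Rhesus 11 to 0.80 in Rhesus 8, and over the 12 CA3 neuron markers from -0.55 in Rhesus 8 to 0.28 in Rhesus 4. Without Rhesus 11 the log2FC of FIBCD1 was 0.14 (FDR 0.920), that of MPPED1 0.36 (FDR 0.760) and that of CPNE4 -0.43 (FDR 0.661), so the fields remained unseparated by these genes. At an unadjusted p under 0.05, 2 of the 14 CA1 markers were higher in CA1 and 2 in CA3. Of the 12 CA3 markers, 1 was higher in CA1 and 1 in CA3 at that p. NDST4 and CCN3 of the CA1 list, chosen after their values were seen, were higher in CA1 in 6 of 8 animals. NDST4, a heparan sulfate sulfotransferase, had a log2FC of 1.02 (SE 0.49, FDR 0.807), and CCN3, a secreted matricellular protein, had a log2FC of 0.69 (SE 0.43, FDR 0.913). WFS1, the wolframin of the endoplasmic reticulum, had a log2FC of -0.13 (SE 0.13), or -0.015 without Rhesus 11, and GRIK4, a kainate receptor subunit that is rich at mossy fiber synapses, 0.06 (SE 0.08).

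The animals also differed from one another across the transcriptome. Over 11690 genes with a mean above 5 CPM, the CA1 minus CA3 differences of 2 animals had a Pearson correlation of -0.59 between Rhesus 11 and Rhesus 8 and of 0.65 between Rhesus 8 and Rhesus 3. These are correlations across genes within paired libraries, and genes are not independent replicates. Of the 28 pairs of animals 12 had a correlation below 0, and the median was 0.080. Rhesus 11 was below 0 with 5 of the other animals. CA1 and CA3 intermingled on the first axes of a principal component analysis, in which the dentate gyrus lay to the lower right. It was below both fields of the same animal on the second axis in every animal but Rhesus 8.

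**Figure D3:**
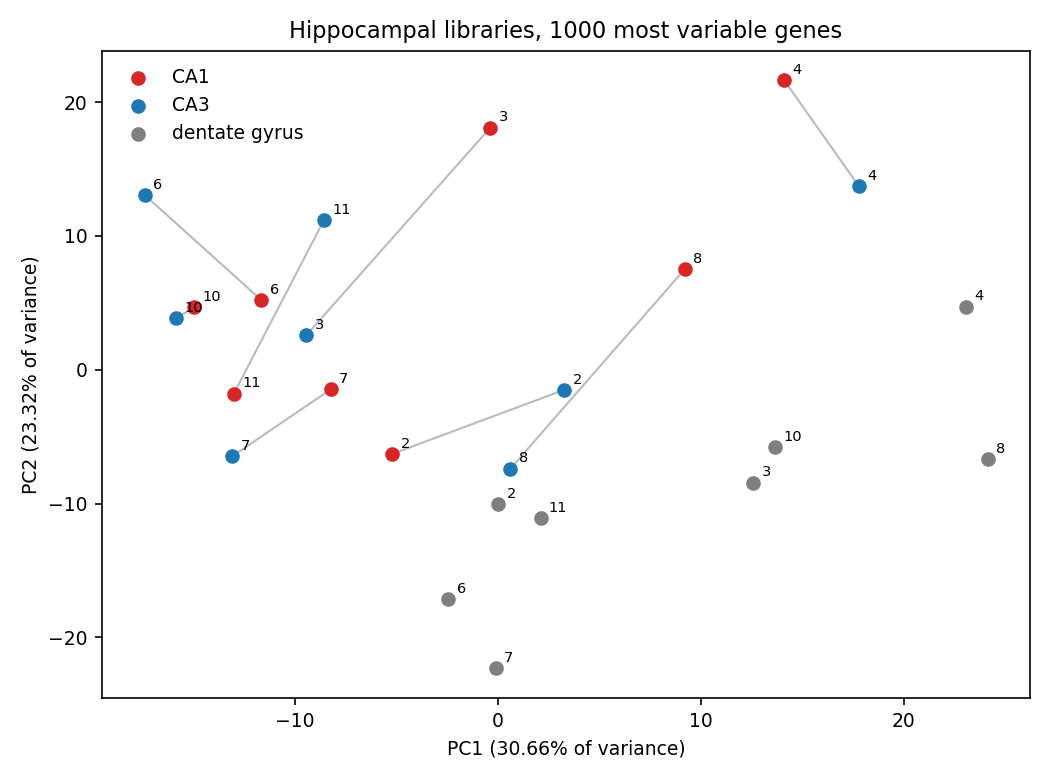
Principal component analysis of the 24 hippocampal libraries on the 1000 genes of highest variance after variance stabilization, with PC1 (30.66% of variance) and PC2 (23.32%), points labelled by Rhesus number and a grey line from CA1 to CA3 of 1 animal. The lines point in different directions, and the dentate gyrus lies below both fields of the same animal on PC2 in all but Rhesus 8.

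A single gene passed the test. WIF1 (ENSMMUG00000016887), a secreted inhibitor that binds WNT ligands, was higher in CA3, with 92.3, 104 and 150 CPM in CA1 and 135, 242 and 278 CPM in CA3. Its log2FC was -0.99 (SE 0.12) at an FDR of 0.0440, and CA3 was the higher library in 8 of 8 animals, with an overlap of the groups through the highest CA1 and the lowest CA3 library. Of 14442 genes tested, 0 were called as higher in CA1 and 1 as higher in CA3 at FDR < 0.05 in edgeR, which is 0.00692% of the genes, and 0 were called with a fold over 2. At an unadjusted p under 0.05 stood 977 genes, of which 514 (3.56%) were higher in CA1 and 463 (3.21%) in CA3. The median size of the log2FC over all genes was 0.078, below the median SE of 0.11. WIF1 kept an FDR below 0.05 in 4 of the 8 fits that each left out 1 animal, and its FDR was 0.213 without Rhesus 4, 0.174 without Rhesus 7, 0.0775 without Rhesus 8 and 0.120 without Rhesus 10. Without Rhesus 11 its FDR was 0.0163.

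The count of called genes turned on the tool and on Rhesus 11. DESeq2's likelihood-ratio test called 93 of 14162 genes (0.657%), 35 higher in CA1 and 58 higher in CA3, and the call of WIF1 was among them. The edgeR fit over CA1, CA3 and the dentate gyrus called 9 of 14796 genes (0.0608%), all 9 of which DESeq2 called too. Without Rhesus 11, edgeR called 36 of 14457 genes (0.249%), 16 higher in CA1 and 20 higher in CA3, and 24 of them were among the genes DESeq2 called with all animals. In Rhesus 11 itself, whose libraries that fit did not use, 23 of the 36 genes had the opposite direction. No other animal, when left out, gave more than 1 called gene. With Rhesus 11 left out, which was added after the data were seen, DESeq2 called 242 genes and the fit with the dentate gyrus 57.

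**Figure D4:**
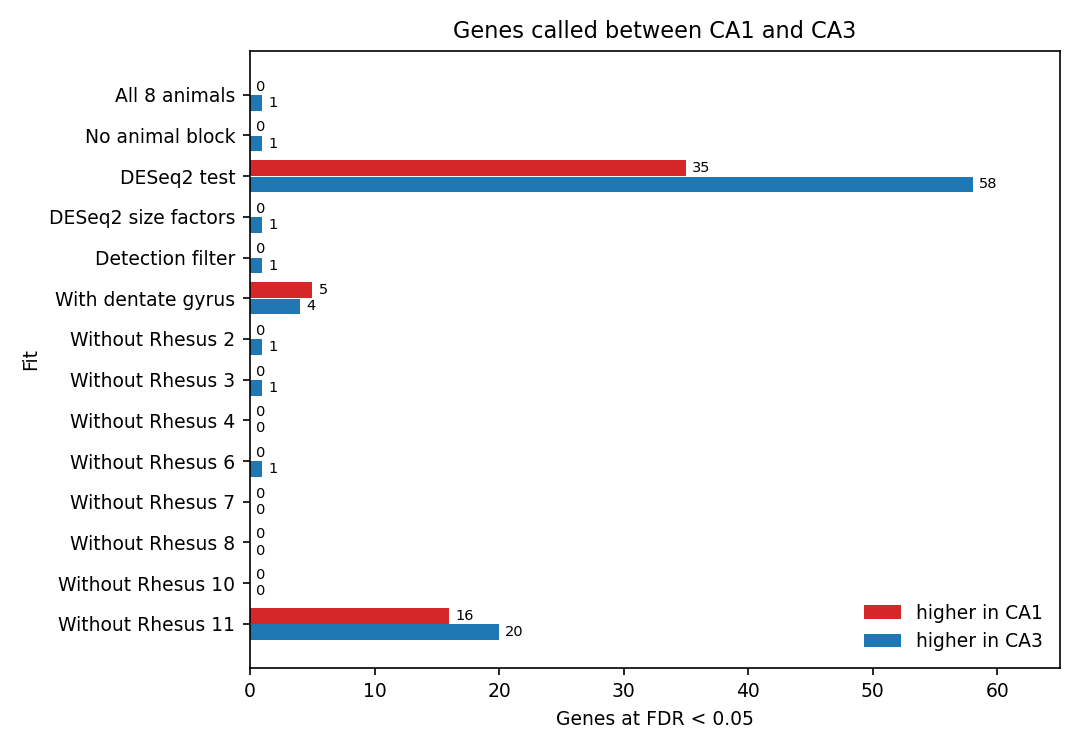
Number of genes at FDR < 0.05 between CA1 and CA3 in each fit, as bars that start at 0, with red for higher in CA1 and blue for higher in CA3. The count is 1 in the fit of all 8 animals, 93 in DESeq2 and 36 without Rhesus 11, and it is 0 or 1 when any other animal is left out.

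Direction alone was alike in all 8 animals for 93 genes that were higher in CA1 (0.644% of those tested) and 91 genes that were higher in CA3 (0.630%). Each of these percentages is for 1 direction, and their sum is the share to set beside chance. If the sign in each animal were random, a fraction (not a percentage) of 0.0078 of genes would be alike, with both directions counted. That fraction is below the sum but of the same order of magnitude. An order alike in 8 of 8 animals is therefore weak evidence for a single gene chosen from many. Besides WIF1, HSF2BP and NPPA, the genes of the next paragraphs either stood first in the written order of a gene list or were chosen after their values were seen, for a call in another fit, a direction alike in all animals or an unadjusted p under 0.05. Values for them are a description, and in bulk tissue fewer cells of a type and less RNA per cell cannot be told apart. The gene lists too were chosen with earlier results of these data known. Their counts beside the shares of all genes are therefore a description and no support.

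Peptides and their receptors were on both sides. PDYN, the dynorphin precursor, ranged from 71.4 to 252 CPM in CA1 and from 28.7 to 102 CPM in CA3 and was higher in CA1 in 8 of 8 animals (log2FC 0.91, SE 0.14, FDR 0.112, and FDR 0.00734 without Rhesus 11). The CA3 levels of Rhesus 7, 10 and 11 lay above the lowest CA1 level, so the groups overlapped. CCK, the cholecystokinin precursor, had 90.1, 139 and 204 CPM in CA1 and 67.7, 119 and 181 CPM in CA3. It was higher in CA1 in 7 of 8 animals, with Rhesus 11 as the exception, and its log2FC went from 0.29 (FDR 0.525) to 0.41 without that animal (FDR 0.0373). NTS, the neurotensin precursor, ranged from 0.230 to 25.9 CPM in CA1 and from 0.210 to 18.8 CPM in CA3, and its log2FC of 2.02 had an SE of 0.80. NPR1, the receptor of atrial natriuretic peptide, was low in both fields, with a median of 2.60 CPM in CA1 and 1.16 CPM in CA3, and was higher in CA1 in 8 of 8 animals (log2FC 0.77, SE 0.21, FDR 0.327), the reverse of NPPA. NPPC and NPR2, the C-type natriuretic peptide and its receptor, had log2FC of -0.21 (SE 0.24) and 0.08 (SE 0.09). ADCYAP1R1, the receptor of PACAP, had a small difference in 8 of 8 animals, with 190 to 335 CPM in CA1 and 160 to 299 CPM in CA3 and a log2FC of 0.24 (SE 0.05, FDR 0.157). In the list of neuropeptides, 5 of 21 tested members were higher in CA1 and 1 was higher in CA3 at an unadjusted p under 0.05, and in the list of their receptors 6 of 19 were higher in CA1 and 0 in CA3. Over all genes tested, 3.56% were higher in CA1 and 3.21% in CA3 at that p. None of either list passed FDR < 0.05 in edgeR, and DESeq2 called 2 of the peptides and 1 receptor.

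Of 18 tested calcium-binding proteins and calmodulin-dependent kinases, 7 were higher in CA3 and 2 in CA1 at an unadjusted p under 0.05, beside 3.21% and 3.56% of all genes. In this list 0 passed FDR < 0.05 in edgeR and 5 passed in DESeq2, and the list's median log2FC was -0.17 beside -0.0004 for all genes. HPCA, the neuronal calcium sensor hippocalcin, had 630, 808 and 1202 CPM in CA1 and 882, 1360 and 1722 CPM in CA3. CA3 was the higher library in 7 of 8 animals and Rhesus 11 was the exception. The log2FC was -0.65 (FDR 0.173) with it and -0.80 (FDR 0.00321) in the fit that left out this opposing pair. TMEM54, which neighbours HPCA on the T2T-MMU8v2.0 assembly, had nearly the same log2FC of -0.64 (SE 0.14), and since the overlap option of the counting is not given, the counts of the 2 neighbours may be shared and are uncertain. CABP1, a calcium-binding regulator of channels, had 42.4, 64.4 and 103 CPM in CA1 and 77.3, 91.2 and 128 CPM in CA3 and was higher in CA3 in 8 of 8 animals (log2FC -0.55, SE 0.09, FDR 0.112). CAMKK2, the kinase that activates CaM kinases I and IV and AMPK, had groups without overlap, from 118 to 159 CPM in CA1 and from 161 to 211 CPM in CA3 (log2FC -0.40, SE 0.07, FDR 0.133). CAMK2A, the alpha subunit of CaM kinase II, stood at 2894 ± 313 CPM in CA1 and 3762 ± 428 CPM in CA3. ITPR1, the calcium release channel gated by inositol trisphosphate, was higher in CA3 in 8 of 8 animals (log2FC -0.38, SE 0.07, FDR 0.133). Higher in CA1 in 7 of 8 animals was PCP4, a regulator of calmodulin and a marker of CA2 neurons. Of the 7 tested CA2 markers it was the 1 higher in CA1 at an unadjusted p under 0.05. At that p RGS14 and NTF3 were higher in CA3, and the median log2FC of the CA2 list was -0.21. PCP4 had 52.8, 124 and 178 CPM in CA1 and a mean of 56.1 ± 10.3 CPM in CA3, and its lowest CA1 library was that of Rhesus 11. Its log2FC was 1.04 (FDR 0.151), and 1.24 without that animal (FDR 0.00734). CALB2 and CALB1, the calcium buffers calretinin and calbindin, had log2FC of 0.89 (SE 0.32) and -0.26 (SE 0.11).

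Among glutamate receptors and their partners, the AMPA and NMDA subunits named by list order lay near 0. The metabotropic receptor GRM3, CNIH2 and AKAP5 kept 1 direction in every animal. CNIH2, an auxiliary subunit that slows the AMPA receptor, had 218, 331 and 457 CPM in CA1 and 346, 460 and 649 CPM in CA3 and was higher in CA3 in 8 of 8 animals (log2FC -0.46, SE 0.09, FDR 0.133). GRM3, a group II metabotropic receptor, had 65.7, 88.8 and 109 CPM in CA1 and 92.2, 127 and 157 CPM in CA3, again higher in CA3 in 8 of 8 (log2FC -0.42, SE 0.07, FDR 0.112 in edgeR and 0.0482 in the fit with the dentate gyrus). AKAP5, the anchor of kinases and calcineurin at the postsynaptic density, was higher in CA3 in 8 of 8 animals (log2FC -0.46, SE 0.09, FDR 0.136), and so was HTR1A, a serotonin receptor (log2FC -0.46, SE 0.09, FDR 0.140). ARC, an activity-regulated gene of the postsynapse, had a log2FC of -0.54 (SE 0.10, FDR 0.133). The AMPA subunits GRIA1 and GRIA2 had log2FC of -0.06 (SE 0.07) and -0.09 (SE 0.13), GRIN1 and GRIN2A of the NMDA receptor 0.11 (SE 0.10) and -0.19 (SE 0.19), and GRM2 0.08 (SE 0.17). At an unadjusted p under 0.05 stood 1 of 11 AMPA and kainate subunits, 1 of 10 auxiliary subunits, 0 of 6 NMDA subunits, 1 of 7 metabotropic receptors and 0 of 13 GABA receptor subunits. These were the kainate subunit GRIK1, higher in CA1, and CNIH2 and GRM3, higher in CA3. Over all genes, 3.56% were higher in CA1 and 3.21% in CA3 at that p.

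Secreted signals and guidance molecules stood on both sides. CYP26B1, the enzyme that clears retinoic acid, had 1.59, 3.44 and 4.54 CPM in CA1 and 3.99, 6.41 and 15.6 CPM in CA3 and was higher in CA3 in 8 of 8 animals, by little in Rhesus 11 (log2FC -1.16, SE 0.19, FDR 0.115, and FDR 0.0147 without it). ALDH1A1, an enzyme that makes retinoic acid, had a log2FC of -0.20 (SE 0.07). EPHA5, an ephrin receptor of axon guidance, had 97.7, 145 and 220 CPM in CA1 and 165, 257 and 445 CPM in CA3 and was level in Rhesus 11 (log2FC -0.85, SE 0.18, FDR 0.151, and FDR 0.0427 without it). NRG1, the ERBB ligand neuregulin 1, had 5.59, 10.7 and 15.2 CPM in CA1 and 2.71, 5.33 and 7.19 CPM in CA3 and was higher in CA1 in 7 of 8 animals, all but Rhesus 6 (log2FC 1.11, SE 0.23, FDR 0.143, and 0.0482 in the fit with the dentate gyrus). TENM2, a teneurin that binds latrophilins across the synapse, stood at 161 ± 25.8 CPM in CA1 and 120 ± 16.4 CPM in CA3 and was higher in CA1 in 8 of 8 (log2FC 0.42, SE 0.08, FDR 0.134). SLIT2, a repellent of growing axons, had a log2FC of 0.60 (SE 0.15, FDR 0.250). WNT3 and WNT2B, ligands of the pathway that WIF1 inhibits, had log2FC of 0.52 (SE 0.14, FDR 0.289) and 0.11 (SE 0.28). IGFBP3, which binds insulin-like growth factors, ranged from 13.2 to 56.5 CPM in CA1 and from 10.2 to 15.9 CPM in CA3 and was higher in CA1 in 8 of 8 animals (log2FC 0.94, SE 0.21, FDR 0.184). GLI1, a transcription factor of the hedgehog pathway, had a log2FC of 1.29 (SE 0.27, FDR 0.145). NPNT, a matrix ligand of integrin alpha 8, and ITGA8, that integrin, had log2FC of -1.17 (FDR 0.379) and -1.67 (FDR 0.521). In Rhesus 11 both ran the other way, ITGA8 did so in Rhesus 2 as well, and without it they stood at -1.47 (FDR 0.0291) and -2.23 (FDR 0.0427).

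CERS3, a ceramide synthase for very long acyl chains, had 1.66, 4.68 and 9.97 CPM in CA1 and 5.42, 11.3 and 38.5 CPM in CA3. It was higher in CA3 in 7 of 8 animals and differed by 0.0111 log2 units in Rhesus 11, and its log2FC was -1.38 (FDR 0.112), or -1.60 (FDR 0.000960) without that animal. ANXA2 and ANXA4, which bind membranes in the presence of calcium, stood on opposite sides, at 52.8 ± 13.9 CPM in CA1 and 25.4 ± 11.6 CPM in CA3 for ANXA2. ANXA4 ranged from 10.1 to 23.6 CPM in CA1 and from 12.8 to 37.4 CPM in CA3 and was higher in CA3 in 8 of 8 animals. The copines CPNE2 and CPNE7 were higher in CA1, in 8 of 8 and 7 of 8 animals, with log2FC of 0.67 (SE 0.14, FDR 0.140) and 1.66 (SE 0.50, FDR 0.421). KLHL4, PMEPA1 and TMEFF2 also kept 1 direction in 8 of 8 animals, with log2FC of -0.69 (SE 0.12), -0.45 (SE 0.07) and 0.39 (SE 0.07) and an FDR of 0.133, 0.112 and 0.133.

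Of 43 tested transcription factors of the forebrain, 11 were higher in CA3 and 3 in CA1 at an unadjusted p under 0.05, beside 3.21% and 3.56% of all genes. Their median log2FC was -0.14, while 0 passed FDR < 0.05 in edgeR and 0 in DESeq2. ZBTB18, a repressor needed for cortical neurons, had 342, 390 and 445 CPM in CA1 and 381, 486 and 613 CPM in CA3 (log2FC -0.26, SE 0.08). LMO3 and LMO4, cofactors of the LIM domain family, had log2FC of -0.36 (SE 0.10) and -0.17 (SE 0.05), and LMO4 was higher in CA3 in 8 of 8 animals. BCL11A and BCL11B, zinc finger factors of projection neurons, had log2FC of -0.17 (SE 0.07) and -0.31 (SE 0.13), and NR3C1, the glucocorticoid receptor, -0.20 (SE 0.09). NR2F2, a nuclear receptor of caudal telencephalon and of interneurons, had the largest log2FC of the 3 that were higher in CA1. It stood at 29.8, 73.3 and 144 CPM in CA1 and 14.6, 27.9 and 60.8 CPM in CA3, with Rhesus 11 as the only animal higher in CA3 (log2FC 1.22, SE 0.38, FDR 0.433, and 1.52 with an FDR of 0.0568 without it). The related NR2F1 had a log2FC of 0.26 (SE 0.11) and ID4, an inhibitor of basic helix-loop-helix factors, 0.22 (SE 0.10). The first members of the list by its written order, LHX2 and LHX9, had -0.01 (SE 0.09) and -0.08 (SE 0.27).

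Markers of other cells moved between the blocks of tissue, and their part in these results was not tested. The granule cell factor PROX1 had 4.68, 20.7 and 24.2 CPM in CA1 and 5.99, 19.6 and 29.3 CPM in CA3, beside a median of 32.5 CPM in the dentate gyrus, and it was higher in CA1 in 4 of 8 animals. Summed over the 13 matched granule cell markers the level ran from 1176 to 1433 CPM in CA1 and from 1199 to 1657 CPM in CA3. The sum ran from 1394 to 2021 CPM in the dentate gyrus. It was higher in CA1 than in CA3 in 2 of 8 animals, with medians of 1301 CPM in CA1 and 1535 CPM in CA3. At an unadjusted p under 0.05, 1 of 11 tested granule cell markers was higher in CA1 and 2 in CA3. C1QL2, a synaptic organizer of mossy fibers, had a log2FC of 0.29 (SE 0.10). The 7 matched oligodendrocyte markers summed to 3382 to 8653 CPM in CA1 and 4086 to 9661 CPM in CA3, higher in CA1 in 1 of 8 animals, and MBP and MOBP, proteins of myelin, had log2FC of -0.30 (SE 0.14) and -0.27 (SE 0.16). The 15 interneuron markers summed to 813 to 1152 CPM in CA1 and 767 to 1097 CPM in CA3, higher in CA1 in 7 of 8 animals, and GAD1 and GAD2, which make GABA, had log2FC of 0.26 (SE 0.09) and 0.22 (SE 0.09). At an unadjusted p under 0.05 stood 5 of these 15, all higher in CA1, beside 3.56% of all genes in that direction. The 7 matched of 10 choroid plexus markers summed to 9.43 to 29.1 CPM in CA1 and 14.3 to 90.8 CPM in CA3, higher in CA1 in 3 of 8 animals. TTR, KCNJ13 and AQP1 were not matched, and 3 members were tested. CLIC6 of that list ranged from 0.392 to 1.66 CPM in CA1 and from 0.211 to 24.8 CPM in CA3. KL, also of that list, had a log2FC of -0.33 (SE 0.35), which was -0.034 without Rhesus 11 and -0.15 without Rhesus 8. No matched member of these lists was at 0 in all 16 libraries.

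Further lists held 0 genes at FDR < 0.05. Over all genes, 3.56% were higher in CA1 and 3.21% in CA3 at an unadjusted p under 0.05. Astrocyte markers had 2 of 8 members higher in CA1 at an unadjusted p under 0.05, with log2FC of 0.30 (SE 0.12) for GFAP and 0.13 (SE 0.10) for AQP4. Microglia markers had 1 of 5 higher in CA3, with -0.27 (SE 0.10) for P2RY12 and -0.17 (SE 0.09) for CSF1R. The vascular genes PECAM1 and VWF had -0.04 (SE 0.10) and -0.14 (SE 0.11), the oligodendrocyte precursor genes PDGFRA and CSPG4 -0.01 (SE 0.07) and -0.05 (SE 0.13), the ependymal genes FOXJ1 and CFAP126 -0.36 (SE 0.49) and -0.18 (SE 0.12), and the hemoglobin gene HBA -0.09 (SE 0.17). The CA2 markers RGS14 and AMIGO2 had -0.39 (SE 0.11) and -0.29 (SE 0.23), the mossy cell marker DRD2 0.13 (SE 0.21), the subiculum marker FN1 -0.14 (SE 0.08), the cortical layer markers RORB and CUX2 -0.42 (SE 0.27) and 0.24 (SE 0.15), and TP73 of Cajal-Retzius cells 0.10 (SE 0.17).

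Ion channel, transmitter release and matrix genes had 0 members at FDR < 0.05. The counts at an unadjusted p under 0.05 stand beside 3.56% of all genes higher in CA1 and 3.21% higher in CA3. KCNA3 had a log2FC of 0.15 (SE 0.11), with 3 of 23 potassium channels at an unadjusted p under 0.05, and SCN1A and SCN2A had 0.04 (SE 0.08) and -0.03 (SE 0.12), with 1 of 16 sodium, calcium and HCN channels. The vesicular glutamate transporters SLC17A6 and SLC17A7 had 0.34 (SE 0.14) and -0.04 (SE 0.06), and 8 of 35 genes of vesicle release stood at an unadjusted p under 0.05, all higher in CA1, with a list median of 0.063. GABRA2 had -0.01 (SE 0.17), HTR1E 0.06 (SE 0.20), BDNF and NTF3 -0.03 (SE 0.18) and -0.68 (SE 0.30), and CACNG2 and CACNG3 0.18 (SE 0.20) and -0.02 (SE 0.13). Of the guidance, adhesion, matrix and early response lists, SEMA3C and SEMA3D had -0.12 (SE 0.24) and 0.19 (SE 0.54), CDH1 and CDH2 0.32 (SE 0.30) and 0.08 (SE 0.06), ACAN and BCAN 0.12 (SE 0.23) and 0.02 (SE 0.08), and FOS and FOSB 0.05 (SE 0.29) and 0.27 (SE 0.21). HSF1 and HSF2, the heat shock factors, had 0.02 (SE 0.10) and 0.05 (SE 0.06) beside the 1.68 of HSF2BP. In all, 515 distinct members of the 38 lists were tested, of which 60 were higher in CA1 and 39 in CA3 at an unadjusted p under 0.05. Of the 515, 0 passed FDR < 0.05 in edgeR and 18 passed in DESeq2. The lists were chosen with earlier results of these data known, so an excess over all genes is no support.

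Each field was set against the dentate gyrus, the other sub-region of the hippocampus, in the fit over 24 libraries. At FDR < 0.05 and a fold over 2, CA1 and the dentate gyrus differed in 522 of 14796 genes (3.53%), 369 higher in CA1 and 153 lower. CA3 and the dentate gyrus differed in 443 genes (2.99%), 326 higher in CA3 and 117 lower. These contrasts share the dentate gyrus libraries. By the same rule and in the same fit CA1 and CA3 differed in 4 genes, 2 in each direction, and the count without Rhesus 11 was 23. The median SE was alike in the 3 contrasts, at 0.11. MPPED1 had a median of 3.72 CPM in the dentate gyrus beside 23.98 CPM in CA1 and 22.2 CPM in CA3. On WIF1 the dentate gyrus (median 148 CPM) lay between CA1 and CA3, on PDYN it lay between them too (83.1 CPM), and on NPPA (4.74 CPM) and HSF2BP (3.20 CPM) it lay close to CA1 and below CA3, respectively. Of the 93 genes higher in CA1 in all animals, the mean of the dentate gyrus was below both fields for 38, between them for 25 and above both for 30. Of the 91 genes higher in CA3 the numbers were 56, 28 and 7, and over all 14442 genes tested they were 6459, 1698 and 6285. Both sets were chosen for a difference between CA1 and CA3, so these counts are a description.

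Among the 51 sub-regions, some of these genes peaked in the hippocampal fields. HSF2BP had its highest median in CA1 (10.7 CPM), followed by the anterior cingular gyrus with 5.35 CPM, and CA3 was at rank 4. NPPA was highest in the olfactory bulb (45.9 CPM), with CA3 at rank 2 and CA1 at rank 8. WIF1 was highest in CA3 (241 CPM) and stood at rank 31 in CA1 (103 CPM). CERS3 was highest in CA3 (11.3 CPM) and next in CA1 (4.71 CPM), and the olfactory bulb followed with 1.74 CPM. CNIH2 had its 3 highest medians in CA3, CA1 and the dentate gyrus. FIBCD1 was also highest in CA3 (36.9 CPM) and next in CA1 (31.3 CPM), with 8.47 CPM in the entorhinal and perirhinal cortex, so both labels carried this CA1 gene above every other sub-region. PDYN was at rank 8 in CA1 and 21 in CA3, far below the caudate nucleus with 778 CPM. CYP26B1 was low in both fields, at rank 48 in CA1 and 45 in CA3, against 187 CPM in the amygdala. No test was run on these medians over 8 animals.

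**Figure D5:**
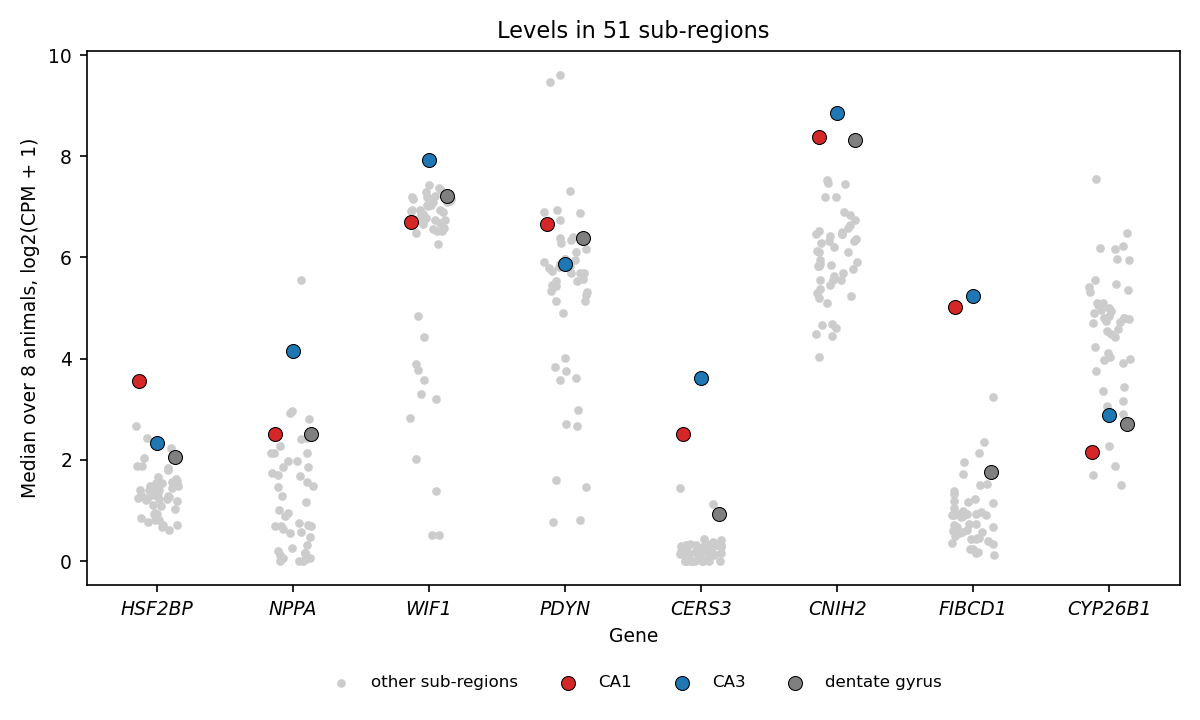
Median level over 8 animals, as log2(CPM + 1), of 8 genes in each of the 51 sub-regions, with CA1 in red, CA3 in blue, the dentate gyrus in dark grey and the other sub-regions in light grey. CA1 leads for HSF2BP, CA3 leads for WIF1, CERS3, CNIH2 and FIBCD1, and both fields are near the bottom for CYP26B1.

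Whether the difference between CA1 and CA3 depended on age stage or sex was tested by interaction terms in 1 model. Between 4 mid-aged (9.8 to 10 years) and 4 young animals (3.2 to 5 years), 0 genes passed FDR < 0.05 in edgeR, 544 stood at an unadjusted p under 0.05, and DESeq2 called 5. Between 4 females and 4 males, 0 genes passed in edgeR, 660 stood at an unadjusted p under 0.05, and DESeq2 called 10. The count for age stage was 13 when Rhesus 3 was left out, with 2387 genes at an unadjusted p under 0.05, and 0 for each other animal. The count for sex was 1 when Rhesus 7 was left out and 0 for each other animal. A count of 0 here does not show that the difference was the same in the groups.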

How the data were processed

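Per the paper's methods, reads were inspected in FastQC 0.11.4, and where their quality was low the authors ran Trim Galore 0.4.4. HISAT2 2.0.5 placed the reads on Mmul 8.0.1, and HTSeq 0.6.1 counted them on Ensembl genes. The authors deposited whole-number counts per gene without normalization. Strand and overlap options are not given in the sources used here, so the counts of overlapping and antisense genes and of near-identical copies are uncertain. Symbols came from a table that names 17572 of 30807 genes. No genome of the build of the counts was used here, so no sequence or coordinate is given, and the 33 ATAC-seq samples and the assembled transcripts were not analysed here.

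The 16 libraries held 8143457 to 13795178 counts (all 408: 7784678 to 31083490), which leaves genes with few counts imprecise. No 2 libraries of a field were duplicates (correlation of log2(count + 1) from 0.980 to 0.989). Genes passing filterByExpr (14442) were tested in R 4.3.3 with edgeR 4.0.16 (TMM, robust quasi-likelihood F test, animal + region, Benjamini-Hochberg FDR), and SE is the log2FC divided by the square root of F. Gene levels by animal are TMM CPM over the 24 hippocampal libraries, and levels of sub-regions are over 408. Both fields came from the same animals, and deviations of same-animal libraries from the field means correlated by 0.164 to 0.622, so the animal was kept as a block. Rhesus 11 had the lowest value, and it was the 1 animal with a higher correlation to a library of another animal (0.175). With the block, the p-values rest on how the CA1 minus CA3 difference within an animal varied from animal to animal. Whether tissue blocks of 1 animal were prepared apart is not known. That variation includes dissection and library noise, which cannot be told apart from biology.

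Alternatives were no animal block, DESeq2 1.42.0, its size factors in edgeR, a count above 1 in at least 3 libraries as filter, the dentate gyrus in the fit, and each animal left out. On simulated counts of 14442 genes with 200 changed, the CA1 against CA3 test recovered 185 at 2-fold and 199 at 4-fold, with 12 and 9 other calls, and the age interaction 87 and 186, with 6 and 13. The changed genes came from those with higher counts, all animals had the same mean levels, and genes were drawn independently. Each change was the same in every animal it applied to. The differences of the real animals disagreed, so these recoveries do not measure the power here. Python 3.11.15 with numpy 2.4.6, pandas 2.3.3 and matplotlib 3.10.9 did the rest.

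The gene lists, like the members, were chosen with earlier results of these data known. Genes were named by a rule: HSF2BP and NPPA, up to 12 per direction at FDR < 0.05 alike in 8 animals with a mean of at least 1 CPM, per list up to 4 at FDR < 0.05 or else members in written order until 2 were named, and up to 3 per interaction at FDR < 0.05. Others were chosen after their values were seen, as stated. Some genes that the rule or this choice would name are not reported here, and they stay within the counts and sums of their lists.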

Additional observations from a re-analysis of the deposited data

Results flagged for a closer look

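In 238 sets of 8 levels, the CA1 and the CA3 levels of each named gene, 21 held a library far from the others by Dixon's test, which flags about 1 in 20 sets by chance. In Rhesus 4 these were CA1 levels of 13.3 CPM for CALB2, 114 CPM for CPNE2 and 12.9 CPM for GLI1, and CA3 levels of 103 CPM for C1QL2, 69.2 CPM for LHX2, 74.4 CPM for NR2F1 and 129 CPM for ID4. In Rhesus 11 they were CA1 levels of 39.9 CPM for NECTIN3 and 61.9 CPM for NPNT, in Rhesus 7 a CA1 level of 252.0 CPM for PDYN and a CA3 level of 1910 CPM for SLC17A7. In Rhesus 8 they were CA3 levels of 9.05 CPM for DRD2 and 24.8 CPM for CLIC6, in Rhesus 6 a CA1 level of 80.6 CPM for P2RY12 and CA3 levels of 18.8 CPM for NTS and 106 CPM for CSF1R. In Rhesus 3 they were CA1 levels of 25.9 CPM for NTS and 11.1 CPM for FOXJ1 and a CA3 level of 0.738 CPM for ACAN, and in Rhesus 2 a CA1 level of 2.28 CPM for WNT2B and a CA3 level of 4.48 CPM for CDH1. All but the ACAN level were the highest of their set.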

How the results depend on the processing

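The number of genes at FDR < 0.05 between CA1 and CA3 was 1, and it was 1 without the replicate block, with DESeq2 size factors and with the detection filter, 9 with the dentate gyrus in the fit and 93 in DESeq2. With a fold over 2 the numbers were 0 in edgeR, 1 without the replicate block, 4 with the dentate gyrus and 16 in DESeq2. Leaving out 1 animal gave 0 to 36 genes, and 0 to 14 with a fold over 2, where Rhesus 11 gave both highest numbers. Without Rhesus 11, an alternative added after the data were seen, DESeq2 called 242 genes and the fit with the dentate gyrus 57, or 52 and 23 with a fold over 2. The cause was not tested. Against the dentate gyrus the counts of 522 for CA1 and 443 for CA3 stayed within 1.5 times under the 4 alternatives, from 457 to 724 for CA1 and from 382 to 596 for CA3. For age stage, DESeq2 called 5 genes in place of 0 and leaving out 1 animal gave 0 to 13, and for sex it called 10 and leaving out 1 animal gave 0 to 1. WIF1 lost its call without Rhesus 4, 7, 8 or 10, with a log2FC from -1.08 to -0.92 over the animals left out. Of the 119 named genes, 31 without a call in edgeR had one in DESeq2, 19 without Rhesus 11 and 7 with the dentate gyrus. Genes were named in part for such calls, so these counts follow from the choice and are no support. Over all genes tested, the shares called in these fits were 0.657%, 0.249% and 0.0608%.

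The log2FC of 25 genes without a call changed sign when an animal was left out. It ran from -0.43 to 0.046 for PROX1, -0.048 to 0.21 for DRD2, -0.065 to 0.18 for TP73, -0.041 to 0.033 for PDGFRA, -0.13 to 0.034 for CSPG4, -0.10 to 0.0099 for PECAM1, -0.016 to 0.27 for CACNG2, -0.11 to 0.11 for CACNG3, -0.039 to 0.21 for GRM2, -0.11 to 0.12 for GABRA2, -0.11 to 0.054 for SCN2A, -0.12 to 0.19 for HTR1E, -0.20 to 0.074 for BDNF, -0.11 to 0.25 for WNT2B, -0.27 to 0.052 for SEMA3C, -0.081 to 0.63 for SEMA3D, -0.094 to 0.034 for LHX2, -0.22 to 0.12 for LHX9, -0.21 to 0.25 for FOS, -0.021 to 0.086 for BCAN, -0.072 to 0.076 for HSF1, -0.50 to 0.14 for FIBCD1, -0.26 to 0.36 for MPPED1, -0.43 to 0.053 for CPNE4 and -0.38 to 0.0040 for NECTIN3. Without the replicate block, 5 of these changed sign, to -0.0028 for GRM2, 0.017 for GABRA2, -0.0063 for HTR1E, 0.0017 for LHX2 and -0.022 for MPPED1.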
